A study of Mus musculus with 8 samples.

Results

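Cbfa2t3 and Cbfa2t2, which encode corepressors of the ETO family, and Snai3, a gene of the Snail family of transcriptional repressors, were followed across 8 RNA sequencing libraries of thymic group 2 innate lymphoid cells (ILC2). They are 3 of the 50686 genes in the count table, found by symbol through their Ensembl IDs. The set was put together with the counts in view: Cbfa2t3 and Snai3 were chosen by their higher counts in cells carrying E47-ER and by their nearness on chromosome 8, and Cbfa2t2 as the family member beside Cbfa2t3. Their differences between E47-ER and GFP cells are therefore given as a description, with no test. All 3 passed the filter on low counts that left 13644 genes for testing.

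ETO proteins do not bind DNA themselves. They are brought to genes by DNA-binding factors, among them the E proteins, and carry histone deacetylases and the nuclear receptor corepressors with them. In blood cells the product of Cbfa2t3 is best known as a partner of the SCL, E protein and GATA complexes of haematopoietic progenitors and the erythroid lineage. Snail proteins do bind DNA, through zinc fingers that recognise the E-box CAGGTG, a form of the CANNTG element to which E proteins also bind. They repress through a SNAG motif at their amino terminus.

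The cells came from the thymus of C57BL/6 mice carrying the plck-Id1 transgene, in which the proximal Lck promoter drives Id1, an inhibitor that keeps E proteins from DNA. All groups share this transgene. The cells were transduced with the MIGR1 retroviral vector, expressing either GFP with E47-ER, a fusion of the E protein E47 and a tamoxifen-binding oestrogen receptor part, or GFP alone. All groups received 4-hydroxytamoxifen, which lets the fusion act in the nucleus, for 4 or 16 h. The groups were E47-ER at 4 h, GFP at 4 h, E47-ER at 16 h and GFP at 16 h, with 2 libraries each, and no library of E47-ER cells without 4-hydroxytamoxifen is analysed here. Whether the 2 libraries of a group stem from different mice or cultures is not in the labels. Every p-value here thus sets differences against a spread between libraries that may be technical.

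Library totals ran from 8813782 to 18677675 counts. The smallest, GFP at 16 h replicate 2, stood apart: its log2 CPM correlated with the rest at a mean r of 0.954, while the other 7 libraries had mean values of 0.980 to 0.983. Short transcripts took more of it, with a median log2 difference from the other GFP libraries of 0.62 over the fifth of genes with the shortest exon length and of -0.33 over the fifth with the longest. Results that rest on the spread between libraries are given with and without it. The 12 ILC2 markers summed to 20916 to 21244 CPM (counts scaled to the effective size of each library) with E47-ER and 25046 to 31587 CPM with GFP alone at 16 h, and to 22600 to 22974 CPM with E47-ER and 25299 to 27557 CPM with GFP alone at 4 h. The E47-ER construct was read through Esr1, with 49.1 ± 7.55 CPM in E47-ER cells at 16 h and 49.1 ± 4.94 CPM at 4 h, against 0.735 ± 0.279 CPM in GFP cells at 16 h and 0.264 ± 0.0741 CPM at 4 h (SD, n = 2 each).

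Cbfa2t3 (ENSMUSG00000006362) and Snai3 (ENSMUSG00000006587) lie on the minus strand of chromosome 8 (GRCm38, the build called mm10), at chr8:122625141-122699109 and chr8:122454208-122460733. Their start sites are 238376 bases apart, and 12 genes of the table lie in the 164407 bases between them. Cbfa2t2 (ENSMUSG00000038533) lies on the plus strand of chromosome 2, at chr2:154436481-154539356. The sequences upstream of the ETO genes are shown because E47 binds E-boxes, and each CANNTG is in capitals. They come from the RefSeq promoter table (GRCm38.p6), which matched 2 of the 3 genes, read 5′ to 3′ on the gene's strand and end just before the annotated start. The 2 windows of Cbfa2t3 are chr8:122699110-122699359 and chr8:122678176-122678425 (minus strand), and that of Cbfa2t2 is chr2:154436234-154436480 (plus strand).
Cbfa2t3 upstream start: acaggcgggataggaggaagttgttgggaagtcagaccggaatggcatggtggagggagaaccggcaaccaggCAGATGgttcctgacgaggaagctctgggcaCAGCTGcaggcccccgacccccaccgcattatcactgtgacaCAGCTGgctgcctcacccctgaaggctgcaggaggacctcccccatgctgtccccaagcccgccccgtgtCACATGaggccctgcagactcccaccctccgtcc
Cbfa2t3 internal start: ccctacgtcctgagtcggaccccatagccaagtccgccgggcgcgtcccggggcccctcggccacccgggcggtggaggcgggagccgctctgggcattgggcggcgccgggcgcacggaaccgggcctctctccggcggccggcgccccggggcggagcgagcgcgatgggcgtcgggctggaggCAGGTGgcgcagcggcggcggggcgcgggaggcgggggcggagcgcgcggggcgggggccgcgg
Cbfa2t2: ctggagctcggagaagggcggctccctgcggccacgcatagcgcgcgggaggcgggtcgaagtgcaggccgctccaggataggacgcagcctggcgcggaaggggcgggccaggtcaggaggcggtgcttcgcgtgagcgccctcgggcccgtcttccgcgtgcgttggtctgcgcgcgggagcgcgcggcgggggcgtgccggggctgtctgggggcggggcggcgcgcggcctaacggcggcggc

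The upstream window of Cbfa2t3 held 4 CANNTG elements, 2 of them in the form CAGCTG, and lies inside an exon of the antisense gene Gm10612. Its internal window held 1, a CAGGTG, in sequence of 83.2% G and C. The Cbfa2t2 window held 0. Of 32536 distinct promoter windows of 250 bases, 66.2% held at least 1 CANNTG and 12.2% held 3 or more. CAGCTG stood in 13.1% of them, with 1.27% holding 2 or more, and CAGGTG in 17.3%. Each of these motifs reads the same on both strands, except CAGGTG, which was counted on both, and CAGCTG and CAGGTG are forms of CANNTG. The matches describe the letters of these windows and do not show binding.

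Snai3 is set beside Snai1 and Snai2 over the first 30 coding bases of the GENCODE transcripts, which encode the start of the SNAG motif. Capitals mark the 23 bases that are the same in all 3 Snail genes.
Snai3: ATGCCGCGCTCCTTCCTGGTgAaaAcgCac
Snai1: ATGCCGCGCTCCTTCCTGGTcAggAagCcg
Snai2: ATGCCGCGCTCCTTCCTGGTcAagAaaCat

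Over the whole coding sequence Snai3 was 68.3% identical to Snai1 and 66.4% to Snai2, and Cbfa2t3 was 70.7% identical to Cbfa2t2 and 73.6% to Runx1t1. These family members shared no stretch of 50 bases in their annotated transcripts. Cbfa2t3 shared 246 of its 8419 windows of that length (2.92%) with Gm10612, which overlaps 295 of its exon bases on the other strand. Whether the counting used strand is not given in the sources used here, and Gm10612 itself held 3 counts over the 8 libraries. Cbfa2t2 shared 573 of 8736 windows with the pseudogene Cbfa2t2-ps1, so a small part of its reads may be split or lost, and Snai3 shared 0 of 1579.

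Cbfa2t3 was close to absent from GFP cells and was read in every E47-ER library. At 4 h it had 35 and 38 counts in the E47-ER libraries, against 1 and 2 counts in the GFP libraries. At 16 h it had 236 and 224 counts in E47-ER cells, against 4 and 1 in GFP cells. The lowest E47-ER library thus lay far above the highest GFP library at both times.

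Scaled to library size, Cbfa2t3 averaged 2.49 ± 0.350 CPM in E47-ER cells and 0.0844 ± 0.0300 CPM in GFP cells at 4 h (SD, n = 2 each). At 16 h it averaged 14.3 ± 2.00 CPM in E47-ER cells and 0.201 ± 0.0958 CPM in GFP cells (SD, n = 2 each). The ratio of summed counts per library size was 28.6 at 4 h, with an exact 95% counting interval of 9.42 to 142, and 63.8 at 16 h, with an interval of 27.1 to 197. These intervals are wide because the GFP libraries held 3 counts at 4 h and 5 at 16 h, and they cover counting error alone. The fitted log2 differences were 4.72 (SE 0.443) at 4 h and 5.96 (SE 0.365) at 16 h.

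Snai3 was read in GFP cells too, at a low level, and was several-fold higher in E47-ER cells. It had 176 and 145 counts in the E47-ER libraries at 4 h, against 39 and 39 in the GFP libraries. At 16 h it had 270 and 311 counts in the E47-ER libraries, against 25 and 12 in the GFP libraries. As with Cbfa2t3, the groups did not overlap at either time. Both genes were chosen for higher counts in E47-ER cells, so this separation is a description. The share of all genes separated in this way was not counted.

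In CPM, Snai3 averaged 10.8 ± 0.586 in E47-ER cells and 2.26 ± 0.286 in GFP cells at 4 h, while its 16 h averages were 18.0 ± 0.0563 with E47-ER and 1.64 ± 0.0576 with GFP alone (SD, n = 2 each). The ratio of summed counts per library size was 4.84 (exact 95% counting interval 3.77 to 6.29) at 4 h and 10.9 (7.81 to 15.6) at 16 h. On the log2 scale the fitted differences were 2.26 (SE 0.191) and 3.44 (SE 0.210). In bulk RNA, fewer cells with a transcript and less transcript per cell cannot be told apart, so these levels do not say how many E47-ER cells carried either transcript.

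Cbfa2t2, the paralogue of Cbfa2t3, did not share this pattern. Its 4 h libraries held 408 and 298 counts with E47-ER and 430 and 414 with GFP alone. Its 16 h libraries held 342 and 407 counts with E47-ER and 336 and 127 with GFP alone. After scaling, the 4 h libraries overlapped, at 26.1 and 21.4 CPM with E47-ER and 27.2 and 21.9 CPM with GFP alone. At 16 h they lay side by side without overlap, at 22.8 and 23.5 CPM in E47-ER cells and 22.6 and 16.9 CPM in GFP cells.

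The lowest Cbfa2t2 value belongs to GFP at 16 h replicate 2, in which it lay 0.49 below the other GFP libraries on the log2 scale. The group of genes with the longest exons had a median of -0.33 there, and Cbfa2t2 is among them with 8650 exon bases. Cbfa2t3, with 8373 exon bases, is in the same group and differed by 0.0007, on 1 count in that library. Snai3, with 1628 exon bases, is in the group with the shortest exons, whose median was 0.62. It differed by -0.33, on 12 counts. The cause of the low Cbfa2t2 value was not tested. The fitted log2 difference between E47-ER and GFP cells was -0.04 (95% interval -0.48 to 0.40) at 4 h and 0.22 (-0.23 to 0.67) at 16 h. Without that library the 16 h value was 0.03 (-0.30 to 0.36). These intervals leave room for differences in either direction, so equal levels are not shown.

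**Figure D1:**
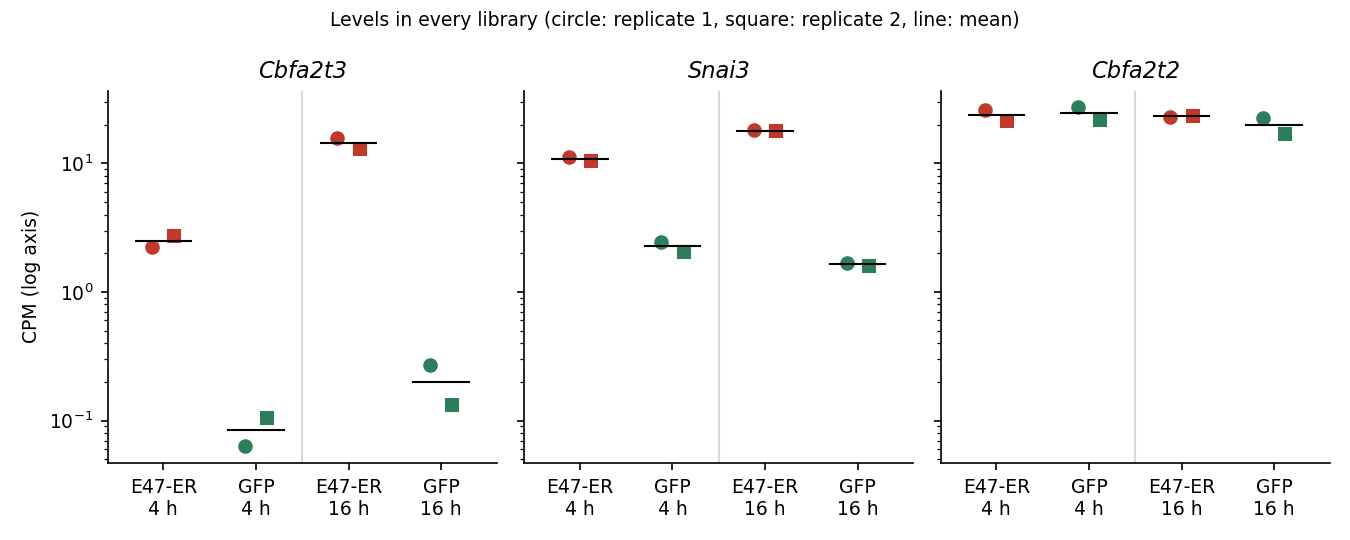
CPM (log axis) of Cbfa2t3, Snai3 and Cbfa2t2 in each of the 8 libraries, with circles for replicate 1, squares for replicate 2 and a line at the mean of each group. Cbfa2t3 and Snai3 lie higher in every E47-ER library than in any GFP library, and Cbfa2t2 stays between 16.9 and 27.2 CPM throughout.

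The make-up of each family shifted with these changes. Cbfa2t3 made up 7.88% and 11.2% of the counts of the 3 ETO genes in E47-ER cells at 4 h, against 0.230% and 0.480% in GFP cells. At 16 h its share was 40.8% and 35.4% in E47-ER cells, against 1.17% and 0.741% in GFP cells. Runx1t1, the third ETO gene, held 1 to 7 counts in each library and was not tested.

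Within the Snail genes, Snai3 held most of the counts in E47-ER cells. Its share of the summed counts of Snai1, Snai2 and Snai3 was 89.3% and 89.0% in E47-ER cells at 4 h, against 67.2% and 58.2% in GFP cells. By 16 h it was 92.8% and 90.9% in E47-ER cells, against 49.0% and 48.0% in GFP cells. Snai1 averaged 0.912 ± 0.0682 CPM in E47-ER cells and 0.987 ± 0.323 CPM in GFP cells at 4 h, and in the 16 h libraries 1.36 ± 0.123 CPM with E47-ER and 1.0 ± 0.479 CPM with GFP alone (SD, n = 2 each). Its adjusted p was 0.9999 at 4 h and 0.630 at 16 h in edgeR's quasi-likelihood test. Snai2 held 2 to 8 counts in each library and was not tested.

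**Figure D2:**
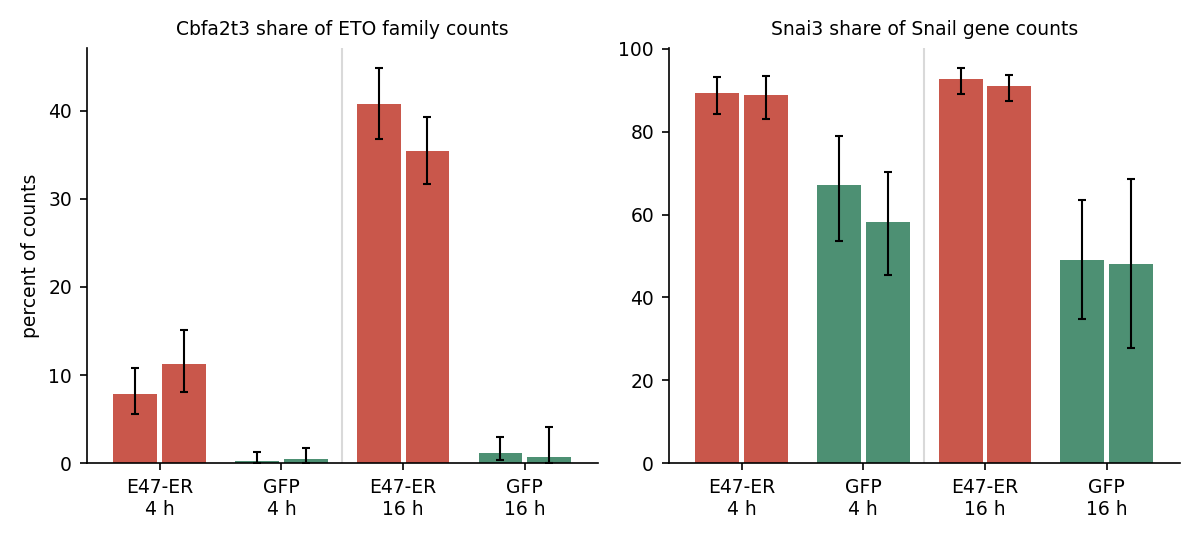
Percent of the summed counts of Cbfa2t3, Cbfa2t2 and Runx1t1 that fell on Cbfa2t3 (left) and of Snai1, Snai2 and Snai3 that fell on Snai3 (right), 1 bar per library with replicate 1 left of replicate 2; error bars are exact 95% binomial intervals for counting error. Cbfa2t3 reaches 40.8% and 35.4% in E47-ER cells at 16 h and stays at or below 1.17% in GFP cells.

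Per kilobase of exon, which allows genes to be compared, Snai3 was the highest of the set in E47-ER cells at 16 h, at 11.1 and 11.03 CPM per kb. Cbfa2t2 lay at 2.64 and 2.72 and Cbfa2t3 at 1.88 and 1.54 CPM per kb in the same libraries. In GFP cells at 16 h the order was Cbfa2t2 (2.61 and 1.96), Snai3 (1.03 and 0.981) and Cbfa2t3 (0.0321 and 0.0159 CPM per kb). Cbfa2t3 therefore had the largest fold difference of the set and remained below Cbfa2t2 per kilobase even where it was highest.

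The 16 h and 4 h libraries of E47-ER cells were also compared. Cbfa2t3 and Snai3 were chosen with these same libraries in view, so the p-values of this comparison are not independent of that choice. In E47-ER cells Cbfa2t3 rose with time, by 2.53 on the log2 scale (SE 0.246; adjusted p = 0.0413, edgeR's quasi-likelihood test with Benjamini-Hochberg adjustment over 13644 genes). Both 16 h libraries lay above both 4 h libraries, and the ratio of summed counts was 5.76 (exact 95% counting interval 4.49 to 7.48). It was 1 of 2 genes called in that comparison, 0.0147% of those tested, the other being Gal, which encodes the neuropeptide galanin.

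The call was near the threshold and depended on which libraries set the spread. Without GFP at 16 h replicate 2 it was 2.52 (SE 0.225, adjusted p = 5.58e-07), in a fit that called 3.08% of 14146 genes. It was lost without any single E47-ER library, where 1 time is left with 1 library (adjusted p = 0.9998 without 4 h replicate 1, 0.858 without 4 h replicate 2, 0.9998 without 16 h replicate 1 and 0.425 without 16 h replicate 2). It was also lost without GFP at 4 h replicate 1 (0.195) or replicate 2 (0.197), while the log2 difference stayed between 2.38 and 2.67 in all of these fits.

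Snai3 was also higher at 16 h than at 4 h in E47-ER cells, by 0.73 on the log2 scale (SE 0.167), and did not pass the adjustment (unadjusted p = 0.00230, adjusted p = 0.747). Its 16 h libraries, at 18.0 and 18.0 CPM, lay above the 4 h libraries, at 11.3 and 10.4 CPM. Without GFP at 16 h replicate 2 the value was 0.72 (SE 0.154) and passed at an adjusted p of 0.0129, and without GFP at 16 h replicate 1 it passed at 0.0110. Cbfa2t2 differed by -0.04 (95% interval -0.48 to 0.40, adjusted p = 0.9997). Reads at Esr1, which carry the construct, differed between the times by 0.00 on the log2 scale (95% interval -0.41 to 0.41, adjusted p = 0.9997).

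GFP cells at 16 h and 4 h were compared in the same fit, in which 0% of genes were called (1238 at an unadjusted p under 0.05, and 0 by DESeq2). Snai3 had 1.68 and 1.60 CPM in GFP cells at 16 h and 2.47 and 2.06 CPM at 4 h, a log2 difference of -0.45 (SE 0.235, adjusted p = 0.510). For Cbfa2t3 the difference was 1.28 (SE 0.727) and rests on 5 and 3 counts. It passed the filter through its E47-ER libraries, so this value is given with no test. Cbfa2t2 differed by -0.30 (SE 0.195, adjusted p = 0.531), and by -0.12 (SE 0.157) without GFP at 16 h replicate 2.

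The E47-ER difference at 16 h minus that at 4 h is made of the differences by which Cbfa2t3 and Snai3 were chosen and is given as a description. In edgeR's quasi-likelihood fit it called 0% of genes (671 at an unadjusted p under 0.05, and 0 by DESeq2). On the log2 scale it was 1.18 for Snai3 (SE 0.287, 95% interval 0.52 to 1.84), 1.25 for Cbfa2t3 (SE 0.907, interval -0.84 to 3.33) and 0.26 for Cbfa2t2 (SE 0.274, interval -0.37 to 0.89). Cbfa2t3 passed the filter on low counts through its E47-ER libraries, and its GFP level rests on 1 to 4 counts per library, so a growing and a constant difference were not distinguishable for that gene at this depth. The count of Cbfa2t3 per count of Snai3, which needs no library scaling, was 0.874 and 0.720 in E47-ER cells at 16 h and 0.199 and 0.262 at 4 h.

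The genes around Snai3 and Cbfa2t3 on chromosome 8 were compared in the same fit. Within 500 kb of either gene the table held 49 other genes, 21 of them tested, and 0 passed the test at 4 h or at 16 h in edgeR's quasi-likelihood fit, where 0.286% and 1.59% of all genes passed. At an unadjusted p under 0.05 there were 3 of these 21 at 4 h and 5 at 16 h, against 5.82% and 24.0% of all genes. DESeq2 called 0 at 4 h and 3 at 16 h, against 0.887% and 9.14% of all genes, and the same 4 shares serve for the lists that follow. The median log2 difference of the 21 was 0.13 at 4 h and 0.22 at 16 h, beside -0.00 and -0.01 over all genes.

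Of the 12 genes lying between Snai3 and Cbfa2t3, 7 were tested. The nearest was Rnf166, which encodes an E3 ubiquitin ligase and ends 5413 bases from Snai3. It had 92.5 and 89.2 CPM in the E47-ER libraries and 70.3 and 65.3 CPM in the GFP libraries at 4 h. At 16 h it had 104 and 101 CPM in the E47-ER libraries and 56.8 and 78.6 CPM in the GFP libraries. The fitted log2 differences of Rnf166 were 0.42 (SE 0.164, adjusted p = 0.783) at 4 h and 0.60 (SE 0.165, adjusted p = 0.118) at 16 h. It passed at neither time with all libraries.

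The other 6 tested genes between them differed in both directions at 16 h, within errors that kept them from passing. Ctu2, a tRNA thiolation gene, differed by -0.19 (SE 0.146), Cdt1, a DNA replication licensing gene, by 0.29 (SE 0.140) and Galns, a lysosomal sulfatase gene, by 0.07 (SE 0.124). Piezo1, which encodes a mechanically gated channel, differed by 0.83 (SE 0.475), Aprt, a purine salvage gene, by -0.96 (SE 0.259) and Trappc2l, a vesicle tethering gene, by -0.69 (SE 0.297), with adjusted p-values from 0.116 to 0.720 for these 6. The nearest tested genes on the outer sides were the long noncoding gene Gm20735, at 0.22 (SE 0.278), and Acsf3, which encodes an acyl-CoA synthetase of mitochondria, at 0.43 (SE 0.248). At 4 h these 8 lay between -0.15 and 0.29.

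Leaving out GFP at 16 h replicate 2 narrowed the errors and changed several of these values. Piezo1 then differed by 0.18 and Trappc2l by -0.10 at 16 h. Of 22 neighbours tested in that fit, 3 rose at 4 h, where 4.33% of all genes passed: Rnf166 by 0.43 (adjusted p = 0.00337), Zfpm1 by 0.74 (adjusted p = 0.0126) and the noncoding gene 2810013P06Rik by 0.66 (adjusted p = 0.0319). At 16 h, where 8.92% of all genes passed, 2 rose and 1 fell. Rnf166 rose by 0.84 (adjusted p = 1.31e-05) and Mvd, which encodes an enzyme of the mevalonate pathway, by 0.70 (adjusted p = 0.00606), while Aprt fell by 0.44 (adjusted p = 0.00430). In both fits the values of Rnf166 were below those of Snai3, which were 2.26 and 3.44 with all libraries.

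Among the neighbours the largest value at 16 h in both fits was that of Cpne7, a copine gene singled out after its values were seen. It had 11 and 13 counts in the 16 h E47-ER libraries and 1 and 0 in the 16 h GFP libraries. The 4 h E47-ER libraries held 3 and 7, and the 4 h GFP libraries 3 and 1. Its adjusted p at 16 h was 0.112 with all libraries and 0.0881 without GFP at 16 h replicate 2. The start sites of Cpne7 and Cbfa2t3 are 418 kb apart.

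**Figure D3:**
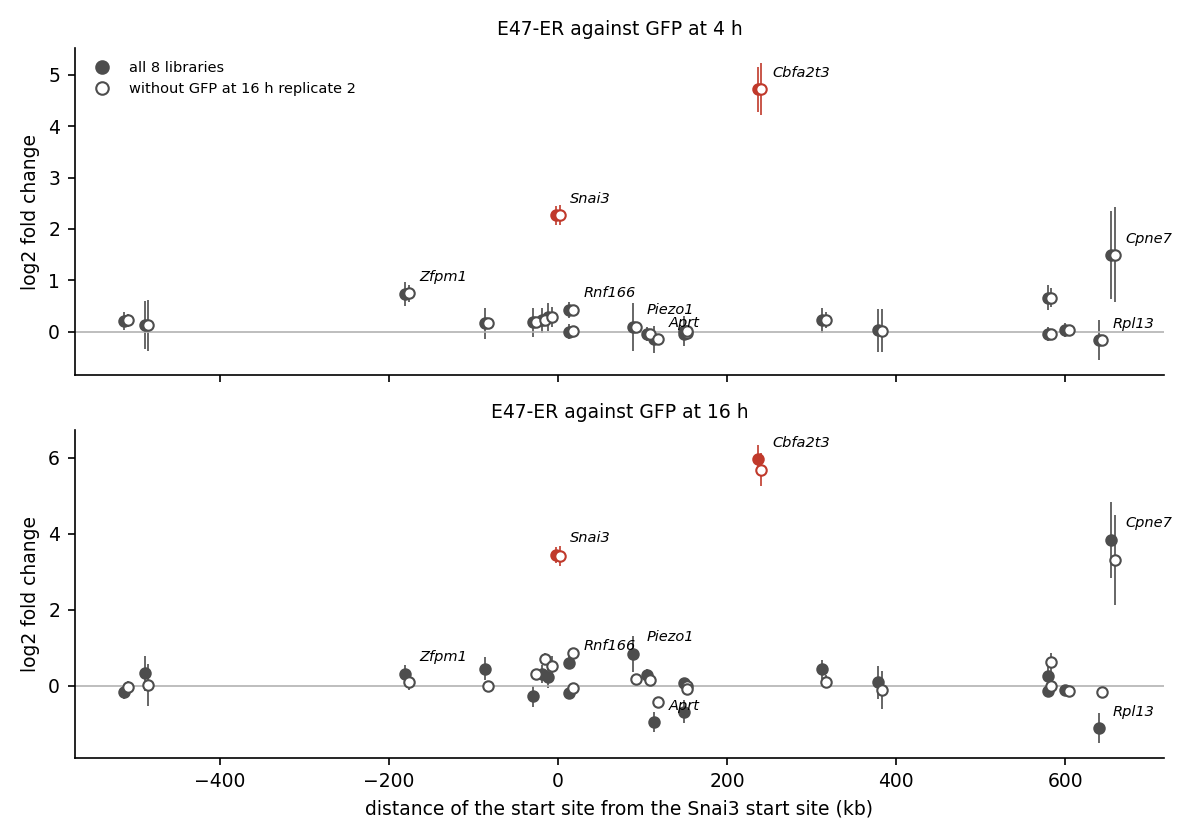
Log2 fold change of E47-ER over GFP cells at 4 h (top) and 16 h (bottom) for Snai3, Cbfa2t3 (red) and the tested genes around them, by distance of their start sites from that of Snai3; filled points are from all 8 libraries, open points from the fit without GFP at 16 h replicate 2, and bars are 1 SE. Snai3 and Cbfa2t3 stand at 2.26 and 4.72 at 4 h, with Rnf166 between them in position at 0.42.

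The proteins that ETO corepressors work with were followed by lists chosen with earlier results known. The list of corepressor complexes (nuclear receptor corepressors, histone deacetylases and their partners) had 12 genes, all tested, and 0 passed in any comparison in edgeR's quasi-likelihood fit or in DESeq2. At an unadjusted p under 0.05 there were 0 at 4 h and 2 at 16 h, where 24.0% of all genes were. Their median log2 difference was 0.03 at 4 h and 0.05 at 16 h, and without GFP at 16 h replicate 2 also 0.03 and 0.04.

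Of the DNA-binding and bridging partners of ETO proteins, 15 of 22 were tested. At 4 h 0 passed in edgeR's quasi-likelihood fit (4 at an unadjusted p under 0.05, where 5.82% of all genes were, and 2 by DESeq2, which called 0.887% of all genes). At 16 h 1 rose, Tcf3, by 1.02 (SE 0.159, adjusted p = 0.0238), where 1.59% of all genes passed. Tcf3 encodes E47 itself, so its reads may include those of the construct, which the counts do not separate from the cells' own Tcf3. The list's median was 0.18 at 4 h and 0.19 at 16 h.

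In the fit without GFP at 16 h replicate 2, 3 of the 15 partners rose and 1 fell at each time, where 4.33% of all genes passed at 4 h and 8.92% at 16 h. At 4 h Gfi1, a repressor with its own SNAG motif, had 104 ± 3.44 CPM in E47-ER cells and 67.9 ± 4.16 CPM in GFP cells (SD, n = 2 each), a rise of 0.62 (SE 0.0874, adjusted p = 5.35e-05). Zfpm1, the GATA cofactor FOG1 and also a neighbour of Snai3, rose by 0.74, Tcf3 by 0.97, and Lmo4, a LIM-domain bridging gene, fell by 0.52 (adjusted p = 0.0105). At 16 h Ssbp2, which binds the LIM-domain bridging protein LDB1, rose by 1.10 (SE 0.323, adjusted p = 0.0339), the E protein gene Tcf12 rose by 0.57 (adjusted p = 0.00300), Tcf3 rose by 0.84, and the E protein gene Tcf4 fell by 0.44 (adjusted p = 0.0400).

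Gfi1 and Zfpm1 did not stay high: in E47-ER cells Gfi1 was 67.0 ± 3.21 CPM at 16 h and 104 ± 3.44 CPM at 4 h (SD, n = 2 each). It fell by 0.65 between these times (SE 0.0877, adjusted p = 1.39e-04) and Zfpm1 fell by 0.74 (SE 0.161, adjusted p = 0.0218) in the fit without that library. Ssbp3, a relative of Ssbp2, rose by 0.36 (adjusted p = 0.0468) in the same comparison. In that fit 1 of the 15 rose and 2 fell, where 3.08% of all genes passed. With all 8 libraries 0 of the 15 passed for 16 h against 4 h in E47-ER cells. There 3 had an unadjusted p under 0.05, where 5.09% of all genes did, and DESeq2 called 1, against 0.176% of all genes. In GFP cells Zfpm1 differed between the times by -0.30 (SE 0.245) with all libraries and by -0.09 (SE 0.207) without GFP at 16 h replicate 2.

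For Snai3 the lists held the rest of its superfamily, its cofactors, and the epithelial and mesenchymal genes that Snail proteins are known for. Of the other 4 superfamily genes 2 were tested, Snai1 and Scrt1, and 0 passed at either time in edgeR's quasi-likelihood fit or in DESeq2 (0 at an unadjusted p under 0.05). Scrt1, a Scratch gene of the nervous system, averaged 15.8 ± 1.26 CPM in E47-ER cells and 17.8 ± 3.95 CPM in GFP cells at 16 h (SD, n = 2 each). Of 16 cofactors, all tested, 0 passed at either time in edgeR's quasi-likelihood fit with all libraries (2 at 4 h and 4 at 16 h at an unadjusted p under 0.05, against 5.82% and 24.0% of all genes, and 1 and 0 by DESeq2, against 0.887% and 9.14%), with medians of -0.03 and 0.02.

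Ajuba, which encodes a LIM protein that binds the SNAG motif, had 35 and 49 counts in E47-ER cells and 12 and 11 counts in GFP cells at 4 h. Its difference of 2.10 (SE 0.369) passed without GFP at 16 h replicate 2 (adjusted p = 8.40e-04) and missed with all libraries (adjusted p = 0.0786). Without that library Ezh2, the Polycomb methyltransferase gene, rose by 0.50 at 4 h (adjusted p = 0.00139) and Ctbp2, a corepressor gene, fell by 0.81 at 16 h (adjusted p = 0.0484). In that fit 2 of the 16 cofactors rose at 4 h, where 4.33% of all genes passed. At 16 h 1 of the 16 fell, which is not above the 8.92% of all genes that passed. Some of the genes named among the partners and cofactors share exon bases with another gene, which the counting could split: Ssbp2 1765 and Gfi1 101 with antisense transcripts, Ezh2 174 with an antisense long noncoding gene, and Ctbp2 314 with Fgfr2 on the same strand.

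Snail proteins are textbook repressors of Cdh1, the E-cadherin gene. Of 19 epithelial and mesenchymal genes 10 were tested, with 0 passing at 4 h in edgeR's quasi-likelihood fit (2 at an unadjusted p under 0.05, and 0 by DESeq2) and 2 rising at 16 h, where 1.59% of all genes passed. At 16 h 4 had an unadjusted p under 0.05, against 24.0% of all genes, and DESeq2 called 3, against 9.14%. Cdh1 had 111 and 202 counts in E47-ER cells and 41 and 16 in GFP cells at 16 h, a rise of 1.93 (SE 0.306, adjusted p = 0.0249). Epcam, an epithelial adhesion gene, had 332 and 354 counts in E47-ER cells and 89 and 66 in GFP cells at 16 h, a rise of 1.56 (SE 0.259, adjusted p = 0.0285). The list's other tested epithelial genes did not pass and differed in both directions at 16 h: Cldn1 by 1.73 (SE 0.949) and Tjp1 by 0.51 (SE 0.253), against Cldn7 by -1.35 (SE 0.418), Muc1 by -1.08 (SE 0.493) and Krt18 by -0.32 (SE 0.405). Cldn7, a tight junction gene, averaged 0.814 ± 0.171 CPM in E47-ER cells and 2.17 ± 0.885 CPM in GFP cells at that time (SD, n = 2 each).

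Without GFP at 16 h replicate 2 both genes rose at 4 h as well, Cdh1 by 1.15 (adjusted p = 0.00934) and Epcam by 0.96 (adjusted p = 0.00182). Vim, the mesenchymal filament gene vimentin, fell by 0.33 at 16 h (adjusted p = 0.0352) in that fit. There 2 of the 10 tested genes rose at 4 h, where 4.33% of all genes passed. At 16 h 2 rose and 1 fell, where 8.92% of all genes passed. Epcam is also a marker of thymic epithelial cells. That list of 5 summed to 20.7 to 22.7 CPM in E47-ER cells and 6.05 to 9.05 CPM in GFP cells at 16 h, and to 10.3 to 13.8 CPM in E47-ER cells and 5.12 to 7.08 CPM in GFP cells at 4 h. Epcam is the list's only tested gene and makes up nearly all of the sum, at 22.2 and 20.4 CPM in E47-ER cells and 5.98 and 8.79 CPM in GFP cells at 16 h. Foxn1, which defines the lineage, was at 0 in every library.

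**Figure D4:**
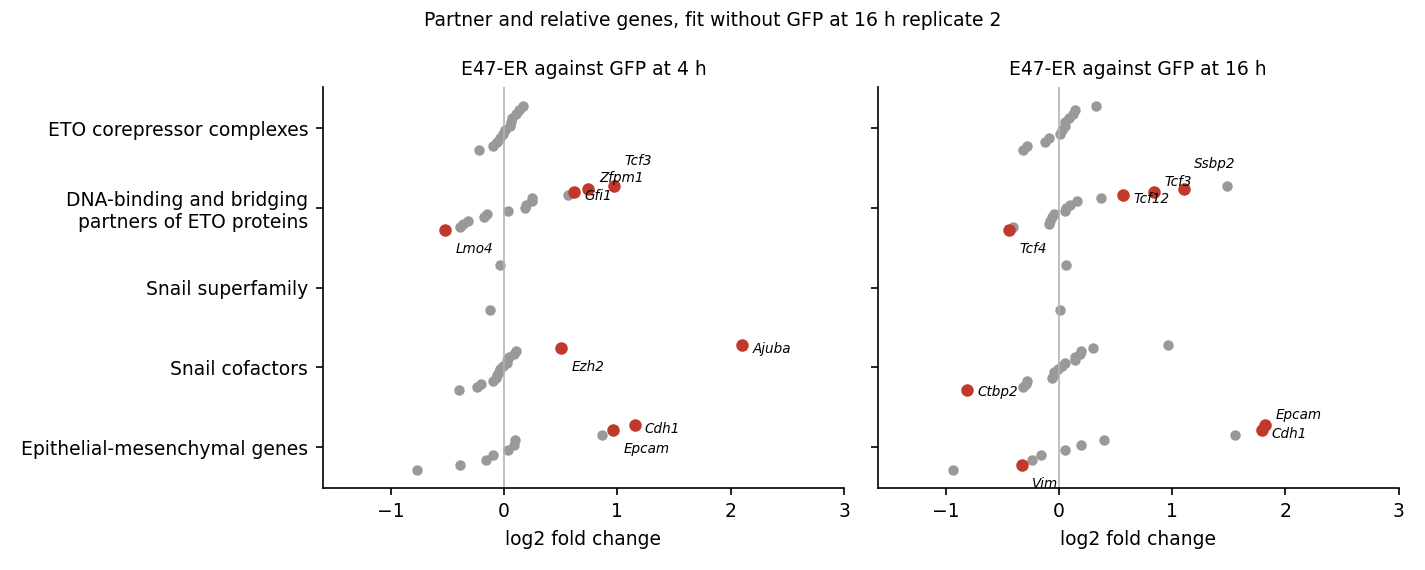
Log2 fold change of E47-ER over GFP cells at 4 h (left) and 16 h (right) for the tested partners and relatives, 1 point per gene, in the fit without GFP at 16 h replicate 2; red points passed at an adjusted p under 0.05. In this fit the corepressor complexes hold no red point, and Ajuba stands at 2.10 at 4 h.

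Cell types that are known to use Cbfa2t3 were looked for by their markers. Erythroid markers (6 genes) summed to 1.14 to 2.25 CPM in E47-ER cells and 1.83 to 2.53 CPM in GFP cells over both times, with the globin gene Hbb-bs at 0 in every library. Megakaryocyte markers (4 genes) stayed at or below 2.30 CPM, and of the 7 plasmacytoid and classical dendritic cell markers Siglech and Clec9a were at 0 throughout. Those 7 summed to 69.2 to 69.4 CPM in E47-ER cells and 72.5 to 86.9 CPM in GFP cells at 4 h, and at 16 h to 81.2 to 90.8 CPM with E47-ER and 105 to 132 CPM with GFP alone. Most of each sum lay in Bst2, which averaged 64.9 ± 1.86 CPM with E47-ER and 76.8 ± 9.79 CPM with GFP alone at 4 h (SD, n = 2 each). Its 16 h averages were 77.6 ± 9.65 CPM with E47-ER and 116 ± 18.7 CPM with GFP alone (SD, n = 2 each). Ccr9, a chemokine receptor gene that thymocytes also express, and Itgax went the other way at far smaller levels. At 16 h Ccr9 had 1.84 CPM with E47-ER against 0.268 CPM with GFP alone, and Itgax 5.55 against 1.47 CPM. Ccr9 rose by 2.74 at that time (adjusted p = 0.0312). With all libraries 1 of the 4 tested markers of this list passed at 16 h, where 1.59% of all genes did. DESeq2 called 2 of them, against 9.14% of all genes. Their median log2 difference at 16 h was 0.66. Of the NK and ILC1 markers Ncr1 was at 0 throughout, and that list of 4 stayed at or below 0.216 CPM.

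The summed ILC2 markers were lower in every E47-ER library than in any GFP library of the same time. Il13 was the largest part of the sum, at 5722 ± 152 CPM in E47-ER cells and 8958 ± 1263 CPM in GFP cells at 16 h (SD, n = 2 each). The markers differed in both directions: Id2, Rora, Il17rb and Icos averaged higher in E47-ER cells at both times. With all libraries 0 of the 12 passed at 4 h (5 at an unadjusted p under 0.05, and 2 by DESeq2), and 1 rose at 16 h, Rora, by 1.004 (adjusted p = 0.0139; 8 at an unadjusted p under 0.05, and 7 by DESeq2). Of all genes 0.286% passed at 4 h and 1.59% at 16 h. In the fit without GFP at 16 h replicate 2, 2 rose and 4 fell at 4 h, and 3 rose and 3 fell at 16 h. In that fit 4.33% of all genes passed at 4 h and 8.92% at 16 h. There the cytokine genes Il5 and Il13 fell by 0.50 each at 16 h (adjusted p = 0.00531 and 8.34e-04) and Id2, which encodes an inhibitor of E proteins, rose by 1.12 (adjusted p = 6.61e-08). Their part in the values of Cbfa2t3 and Snai3 was not tested.

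Summed T cell markers were higher in every E47-ER library than in any GFP library, and most of that sum lay in Trbc1 and Trbc2. The 9 T cell genes summed to 114 to 115 CPM in E47-ER cells and 60.1 to 61.9 CPM in GFP cells at 4 h, and to 170 to 183 CPM in E47-ER cells and 63.7 to 83.8 CPM in GFP cells at 16 h. Trbc1 rose by 1.94 (adjusted p = 0.0330) and Trbc2 by 1.53 (adjusted p = 0.0201) at 4 h, and at 16 h they rose by 2.01 (adjusted p = 0.0120) and 1.72 (adjusted p = 0.00458). These were the 2 of 6 tested markers of that list that passed with all 8 libraries, and DESeq2 also called 2 at each time. Of all genes 0.286% passed at 4 h and 1.59% at 16 h. With GFP at 16 h replicate 2 left out, 3 of the 6 passed at 16 h, where 8.92% of all genes did, with Cd3e rising by 0.47 (adjusted p = 0.0318). Cd3d had 0.801 and 0.693 CPM in E47-ER cells and 0.739 and 2.26 CPM in GFP cells at 16 h. The 6 myeloid markers summed to 8.56 to 8.77 CPM in E47-ER cells and 4.49 to 5.88 CPM in GFP cells at 4 h, and to 7.68 to 9.004 CPM with E47-ER and 4.79 to 6.25 CPM with GFP alone at 16 h. Of the 3 myeloid genes tested 0 passed at either time with all libraries or by DESeq2 (1 at an unadjusted p under 0.05 at each time). Csf1r rose by 2.75 at 4 h (adjusted p = 0.0164) in the fit without GFP at 16 h replicate 2, where 4.33% of all genes passed. That value rests on 17 and 13 counts in E47-ER cells and 4 and 1 in GFP cells. Csf1r shares 873 exon bases with Hmgxb3 on the other strand, and the strand setting of the counting is not known. The part of either cell type in the values of Cbfa2t3 and Snai3 was not tested.

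The genes whose levels ran most like those of Cbfa2t3 over the 8 libraries were ranked by Pearson's r of log2 CPM among 10228 genes. All of the points share libraries, and the values are a description. The highest were Vsir, which encodes the checkpoint receptor VISTA (r = 0.994), the fatty acid desaturase family gene Fads3 (0.991), the immune GTPase gene Gimap7 (0.989), the galectin gene Lgals9 (0.988), the chromodomain gene Cdyl2 (0.987) and the cytidine deaminase gene Apobec3 (0.984). Vsir averaged 142 ± 12.04 CPM in E47-ER cells and 85.1 ± 3.19 CPM in GFP cells at 4 h (SD, n = 2 each). Its 16 h averages were 228 ± 5.75 CPM with E47-ER and 87.2 ± 4.05 CPM with GFP alone (SD, n = 2 each).

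For Snai3 they were Lztfl1, a gene of ciliary transport (r = 0.997), Fam117a (0.992), Lrrc32, which encodes the TGF-beta carrier GARP (0.992), the kinase gene Cdk20 (0.988), Rasgrp1, a Ras activator of lymphocytes (0.987), and Crispld2 (0.987). Crispld2 averaged 67.0 ± 3.07 CPM in E47-ER cells and 13.5 ± 3.62 CPM in GFP cells at 4 h (SD, n = 2 each). Its 16 h averages were 114 ± 0.697 CPM with E47-ER and 12.1 ± 5.18 CPM with GFP alone (SD, n = 2 each). Lists of the same length made without GFP at 16 h replicate 2 shared 3 of the 6 for Snai3 and 0 of the 6 for Cbfa2t3. Over all 8 libraries Snai3 itself ranked 46 for Cbfa2t3, with r = 0.959. Without GFP at 16 h replicate 2 that r was 0.957.

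The genes most like Cbfa2t2 were Mark4, a microtubule affinity kinase gene (r = 0.976), Stat5b, a cytokine signal transducer gene (0.974), and Mphosph9 (0.973). Without GFP at 16 h replicate 2, 0 of these 3 were among the top 3.

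**Figure D5:**
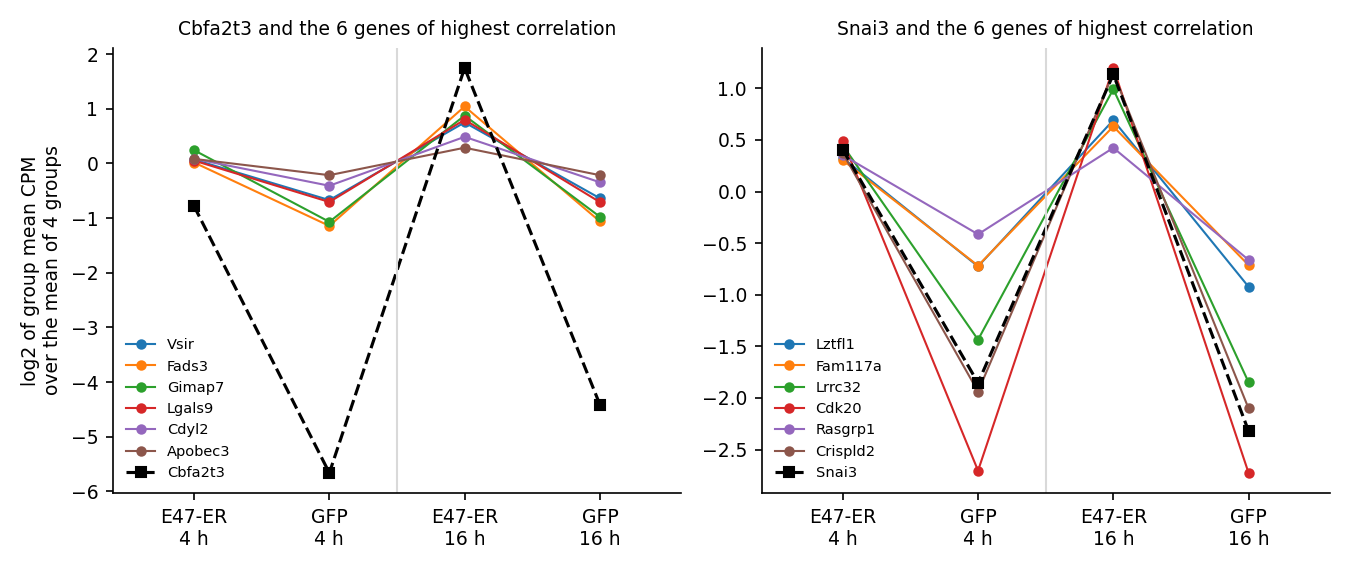
Mean CPM of each group over the mean of the 4 groups, on the log2 scale, for Cbfa2t3 (left, black dashes) and Snai3 (right, black dashes) and the 6 genes of highest correlation with each. The similar genes are highest in E47-ER cells at 16 h and next highest in E47-ER cells at 4 h, while Cbfa2t3 falls far lower in GFP cells than any of its 6.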

How the data were processed

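The authors deposited unnormalized counts of reads per gene, under Ensembl IDs, for each library. The submitters' processing notes name the build mm10 and DESeq2 without a version or role. For aligner, counting tool and strand setting, nothing is given in the sources used here. GENCODE release M21 (GRCm38) gave symbols and coordinates and matched 50462 of 50686 IDs.

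Counts were fitted in R 4.3.3 with edgeR 4.0.16: filterByExpr with a minimum count of 10, TMM scaling, and a robust quasi-likelihood model with 1 mean per group over all 8 libraries. Tests were two-sided, with Benjamini-Hochberg adjustment over 13644 genes and calls at an adjusted p under 0.05. The SE is the absolute log2 fold change over the square root of F. The procedure was tested on simulated data. Ratios of summed counts have exact binomial intervals.

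The members and gene lists were chosen with earlier results of these data known. Named besides the members are Runx1t1, Snai1, Snai2, Tcf3 and Esr1, every gene between Snai3 and Cbfa2t3 that was tested, the nearest tested gene on each outer side, called neighbours, up to 4 called genes per list, and the 6 or 3 genes of highest correlation (log2 CPM with a prior count of 2, mean of at least 1). Alternatives were other scaling, filters, DESeq2 1.42.0, subsets of libraries, a replicate block, another threshold and other windows.

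1 marker gene is not reported here.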

Additional observations from a re-analysis of the deposited data

How the results depend on the processing

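Precision is limited by 2 libraries per group and, for Cbfa2t3, by 3 and 5 counts in GFP cells. Left out in turn, single libraries gave E47-ER over GFP log2 differences of 4.45 to 5.11 (4 h) and 5.69 to 6.68 (16 h) for Cbfa2t3, 3.41 to 3.51 (16 h) for Snai3 and -0.20 to 0.12 (4 h) for Cbfa2t2, which turned positive without GFP at 4 h replicate 1 (0.12) or E47-ER at 4 h replicate 2 (0.09). Snai3 at 16 h was 3.55 with library totals as scaling and 3.50 with no filter.

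For 16 h against 4 h in E47-ER cells, Cbfa2t3 lost its call with library totals (2.54, adjusted p = 0.0603), a minimum count of 30 (2.53, 0.0521) and the replicate block (2.52, 0.134), and ranged from 2.38 to 2.67 without single libraries. Over all alternatives its adjusted p ran from 1.45e-11 to 0.9998. Snai3 passed with the compared libraries alone (0.73, adjusted p = 8.34e-04) and ranged from 0.68 to 0.79. Cbfa2t2 ranged from -0.17 to 0.11, positive without E47-ER at 4 h replicate 1. Without GFP at 16 h replicate 1, which leaves the library that stands apart, Cbfa2t2 passed for 16 h against 4 h in GFP cells (-0.56, adjusted p = 0.0189; range -0.56 to -0.12) and the difference of the E47-ER differences for Snai3, a description, was 1.24 (range 1.06 to 1.32).

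Neighbours called, 0 in each comparison with all libraries, were 2 at 4 h with the compared libraries alone (0 to 3 without single libraries). At 16 h they were 1 with library totals, 5 with no filter and 3 with DESeq2 (0 to 11). Over time they were 2 in E47-ER cells with the compared libraries alone (0 to 1) and 1 in GFP cells with no filter (0 to 8). Of 128 listed genes, markers included, 78 were tested. At 4 h 2 were called, against 10 with no filter, 1 with the replicate block, 7 with DESeq2, 17 with the compared libraries alone, 5 at an adjusted p under 0.1, and 0 to 18 without single libraries. At 16 h 7 were called, against 17 with no filter, 17 with DESeq2, 0 with the compared libraries alone, and 0 to 41. Over time in E47-ER cells 0 were called, against 1 with no filter, 1 with DESeq2, 11 with the compared libraries alone, and 0 to 9; in GFP cells 0, and 0 to 30. The highest counts at 16 h and over time in GFP cells came without GFP at 16 h replicate 1. That fit leaves only the library that stands apart for GFP at 16 h. Except for DESeq2 and the fit without GFP at 16 h replicate 2, the share of all genes called was not counted for these alternatives. Their counts therefore do not set the neighbours or listed genes apart from all genes. The cause of these shifts was not tested.

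Same-numbered libraries share a number alone, with correlations of their deviations from -0.0901 to 0.202, so the replicate block is not a paired result.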
